A study of Mus musculus with 20 samples.

Results

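The classical protein tyrosine phosphatases are the enzymes, and a few catalytically dead relatives, that share the tyrosine-specific phosphatase domain of Ptprz1, the gene targeted in this study. They were taken as every gene of the count table whose symbol is Ptpn followed by a number, or Ptpr followed by a letter and at most 1 digit, which gave 37 of 55891 genes, 20 receptor-type (Ptpr) and 17 non-receptor (Ptpn). Ptprg, the closest relative of Ptprz1, was not analysed here.

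RNA was sequenced from primary renal tubular epithelial cells (TEC) grown from the kidneys of mice of strain B6.129-Ptprz1tm1Nmo, in 20 libraries that form 4 groups of 5. Cells were knockout (KO) or heterozygous (het) for Ptprz1, so all libraries carry at least 1 targeted allele and no wild type was set beside them. Cells of each genotype received LPS (100 ng/mL) plus IFNγ (10 ng/mL) for 24 h, or stayed untreated as control. LPS activates Toll-like receptor 4, and IFNγ acts through the kinases JAK1 and JAK2. The labels name 10 animals. Animals 1, 2, 4 and 9 gave a stimulated and a control library of het cells, animals 3, 6, 8 and 10 gave both of KO cells, and animals 5 and 7 are listed once under each genotype, so the genotype of these 4 libraries is in doubt. The labels and files do not say which exons the targeted allele lacks.

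Tyrosine phosphatases remove phosphate from tyrosine residues and so oppose, and in some cases permit, signalling by tyrosine kinases. The receptor types carry an extracellular part, often built like a cell adhesion molecule, and the non-receptor types are placed in the cell by SH2, FERM, PDZ or other domains. Ptprz1 is known from glia and neurons, where it binds pleiotrophin and contactins. In epithelia the family is known for acting on cell junctions, on growth factor receptors and on the JAK kinases that carry interferon signals.

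The promoters of 4 genes are shown because the results below turn on these genes and because LPS acts through NF-κB. Ptprz1 is the targeted gene. When libraries were compared within an animal, Ptprn was called higher and Ptprs lower after LPS+IFNγ in both genotypes, and Ptpn13 higher in KO cells. For Ptpn13 a difference between genotypes was not tested in that comparison. Each window runs from 250 bases before to 50 bases after an annotated start site (RefSeq, GRCm38.p6): Ptprz1 at chr6:22875252-22875551 on the + strand, Ptpn13 at chr5:103424942-103425241 on the + strand, Ptprn at chr1:75264159-75264458 on the - strand and Ptprs at chr17:56462172-56462471 on the - strand. All are written 5′ to 3′ along the gene. Capitals mark the consensus motif of NF-κB in Ptprs.
Ptprz1: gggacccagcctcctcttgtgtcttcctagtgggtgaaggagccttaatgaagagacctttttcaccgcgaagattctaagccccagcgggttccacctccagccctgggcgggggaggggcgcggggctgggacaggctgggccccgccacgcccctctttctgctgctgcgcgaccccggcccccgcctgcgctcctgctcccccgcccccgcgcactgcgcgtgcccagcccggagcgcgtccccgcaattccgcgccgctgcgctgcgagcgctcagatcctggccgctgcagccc
Ptpn13: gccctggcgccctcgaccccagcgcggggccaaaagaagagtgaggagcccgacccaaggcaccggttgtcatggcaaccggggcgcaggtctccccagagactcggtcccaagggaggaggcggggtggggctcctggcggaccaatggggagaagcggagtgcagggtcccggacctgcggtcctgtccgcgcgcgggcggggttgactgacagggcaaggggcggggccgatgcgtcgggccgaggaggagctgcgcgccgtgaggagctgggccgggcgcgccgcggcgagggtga
Ptprn: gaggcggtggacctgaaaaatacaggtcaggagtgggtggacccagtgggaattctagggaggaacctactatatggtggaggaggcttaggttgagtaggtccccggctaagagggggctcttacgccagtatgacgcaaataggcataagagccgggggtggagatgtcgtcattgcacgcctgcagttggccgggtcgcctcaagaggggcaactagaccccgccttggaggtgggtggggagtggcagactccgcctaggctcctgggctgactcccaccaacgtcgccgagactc
Ptprs: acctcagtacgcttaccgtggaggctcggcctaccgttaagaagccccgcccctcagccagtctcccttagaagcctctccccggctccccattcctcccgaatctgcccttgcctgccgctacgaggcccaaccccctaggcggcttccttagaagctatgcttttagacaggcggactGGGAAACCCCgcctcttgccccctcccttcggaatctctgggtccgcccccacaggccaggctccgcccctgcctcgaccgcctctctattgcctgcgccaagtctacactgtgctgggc
This motif and the core of the interferon-stimulated response element (GAAANNGAA) were searched on both strands, with overlaps between motifs allowed. Of the 32817 mouse promoter windows searched, 8.55% held the response element letters and 4.5% the NF-κB consensus. A window was found for 31 members (44 windows, since some genes have several start sites). Among these members, the NF-κB consensus stood in 3 (Ptpn3, Ptpra and Ptprs) and the response element letters in 1 (Ptpn5). Promoters of members without a window were not searched, so their motifs are unknown here. The match in Ptprs began 70 bases before the start site shown. These are matches of letters and no measurement of binding.

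Depth was 12899528 to 20411411 counts per library (median 17431039). The tubular label was checked against 13 epithelial markers, of which 12 averaged at least 1 CPM (the count per 1000000 counts of a library). Slc34a1, a phosphate carrier of mature proximal tubule, was at most 0.864 CPM. Epcam, Cdh1 and Krt8, which mark epithelium, were at 0.155 to 0.920, 0.388 to 1.61 and 1.09 to 6.71 CPM in the 6 libraries of animals 2, 6 and 10, against 13.8 to 74.9, 19.4 to 198 and 57.3 to 366 CPM in the other 14 libraries. Markers of leukocytes summed to 124 to 412 CPM in the 4 het libraries of animals 1 and 9 and to 28.8 to 73.0 CPM in the other 16 (8 of 12 listed markers averaged at least 1 CPM, and the T cell gene Cd3e was at 0). Fibroblast markers ran the other way, at 31.5 to 608 CPM in animals 1 and 9 and 855 to 15166 CPM elsewhere. The libraries of animals 4 (het replicate 5) and 8 (KO replicate 4) went against their stimulation labels. Nos2, the inducible nitric oxide synthase that LPS+IFNγ switches on, was at 0 CPM in both libraries labelled stimulated and at 199.9 (KO) and 85.3 (het) CPM in both labelled control, against 1223 to 3400 CPM in the other 8 stimulated libraries and 0 to 0.233 CPM in the other 8 controls. Results are therefore given for all 20 libraries as labelled and for the 16 without these 4. In bulk RNA, fewer cells of a type and less RNA per cell cannot be told apart.

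Ptprz1 itself was nearly silent in these cells. Its counts were 0, 1, 0, 7 and 0 in the KO LPS+IFNγ libraries, 0, 0, 1, 6 and 0 in KO controls, 2, 4, 0, 3 and 0 in het LPS+IFNγ libraries and 0, 4, 0, 3 and 0 in het controls, in replicate order. The total was 31 counts, 15 in KO and 16 in het, and 13 of the 15 KO counts came from animal 8. The KO and het values were not separable in LPS+IFNγ or in control libraries (exact permutation tests on CPM, two-sided, p = 1 and p = 1; the smallest p that 5 against 5 allows is 0.00794). Without animals 4 and 8, KO held 1 count and het 9 in LPS+IFNγ libraries (exact p = 0.143), and KO held 1 and het 7 in controls (exact p = 0.429). In the 11 libraries with 0 counts, levels of up to 0.147 to 0.233 CPM are compatible with counting error alone. Ptprz1 therefore gave no check of the KO and het labels, and glial and neuronal markers were near 0 as well (0 of 7 averaged 1 CPM, summed 0.572 to 2.77 CPM, Olig2 and Snap25 at 0).

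Although Ptprz1 was almost absent, the cells expressed a broad set of its relatives. By mean CPM over 20 libraries, 9 members stood at 100 or above, 10 between 10 and 100, 6 between 1 and 10 and 12 below 1. Ptpn20 had no count in any library and Ptprh had counts in a single one. Levels of different genes were compared per length, as CPM per kb of exon. The 6 highest were Ptpn13, Ptpn11, Ptpn14, Ptprn, Ptpn23 and Ptpn12. By CPM without the length correction, 4 of these 6 were again among the 6 highest.

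Non-receptor enzymes with FERM domains, which tie proteins to the membrane skeleton, took 2 of these places. Ptpn13, a large scaffold-like phosphatase with FERM and PDZ domains, was highest at 59.2 ± 17.1 CPM per kb (SD, n = 20 libraries). Ptpn14, which binds the growth regulator YAP, was at 35.2 ± 10.4 CPM per kb, with its highest values in animal 10. Their smaller relatives were lower, with Ptpn21 at 11.3 ± 1.53, Ptpn4 at 3.46 ± 0.613 and Ptpn3 at 3.35 ± 1.77 CPM per kb.

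Ptpn11 (SHP2), the SH2-domain phosphatase that carries growth factor signals to Ras, was at 39.6 ± 4.07 CPM per kb, with the smallest relative spread of the first 4. Its relative Ptpn6 (SHP-1), best known from blood cells, was at 1.29 ± 1.68 CPM per kb. Ptpn23 (HD-PTP), which works in endosomal sorting, was at 27.4 ± 3.63 CPM per kb. Ptpn12 (PTP-PEST), which acts on focal adhesion proteins, was at 23.7 ± 3.07 CPM per kb, while its relative Ptpn22 was at 1.07 ± 2.57 CPM per kb. The pair that opposes insulin and cytokine signalling was in the middle of the range, with Ptpn1 (PTP1B) at 11.5 ± 0.884 and Ptpn2 (TC-PTP) at 9.65 ± 2.11 CPM per kb.

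Among receptor types, Ptprn was the highest. It encodes IA-2, a protein of dense-core secretory granules that lacks phosphatase activity, and it stood at 33.4 ± 15.0 CPM per kb, or 46.9 to 289 CPM in single libraries. The only other gene of its class, Ptprn2, had 0 to 0.286 CPM. Next came the adhesion-type receptors Ptprk (22.3 ± 4.76 CPM per kb) and Ptprs (17.7 ± 4.13 CPM per kb) and the receptor Ptprj (DEP-1, 16.9 ± 3.68 CPM per kb). Ptprf, a LAR-type adhesion receptor, varied by as much as its mean, at 10.3 ± 10.0 CPM per kb. Receptors known from other cell types were low: Ptprb of endothelium at 0.643 ± 0.645, Ptprc (CD45) of leukocytes at 0.0692 ± 0.145 and Ptpro of podocytes at 0.0123 ± 0.0188 CPM per kb. Other listed markers summed to 14.8 to 102 CPM for endothelium (4 of 7 averaged at least 1 CPM). Those of podocytes summed to 85.1 to 543 CPM (3 of 5 averaged at least 1 CPM). The share of such cells was not tested. The ranges over libraries of each neighbouring pair among the 6 highest members overlapped, so their order is that of the means only.

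**Figure D1:**
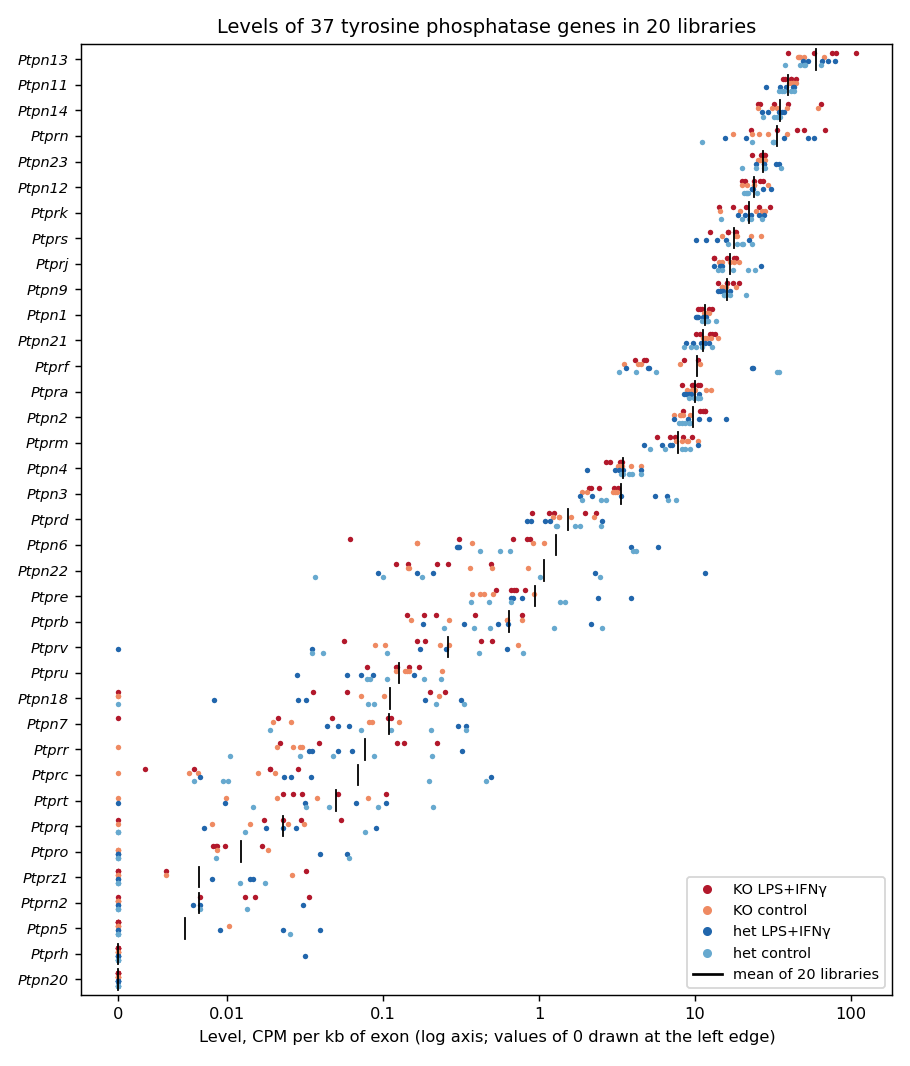
Level of each of the 37 tyrosine phosphatase genes in CPM per kb of exon (log axis; values of 0 at the left edge), 1 point per library, coloured by group, with the mean of 20 libraries as a black line. Ptpn13 leads at a mean of 59.2 and Ptprz1 is among the lowest at 0.00660. Ptprf and Ptpn6 split into a high and a low set of libraries, while Ptpn22 spreads widely without a clear gap.

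The first comparison asked which phosphatases respond to LPS+IFNγ. Ptpn2, the phosphatase that removes phosphate from JAK1 and so limits interferon signalling, was the 1 member called higher in both genotypes when the 4 libraries against their labels were left out and the animal was not a term of the fit. With those 4 libraries kept, no member was called in either genotype.

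Ptpn2 was at 33.8, 35.3, 36.3, 26.3 and 36.3 CPM in KO LPS+IFNγ libraries, against 24.8, 23.0, 25.4, 28.9 and 26.2 CPM in KO controls (replicates 1 to 5). It was at 49.7, 33.0, 28.2, 38.3 and 23.0 CPM in het LPS+IFNγ libraries, against 28.6, 24.5, 25.6, 28.8 and 26.9 CPM in het controls. The lowest value of each stimulated group belonged to the library labelled stimulated of animal 8 (KO replicate 4) or animal 4 (het replicate 5). Without animals 4 and 8 the KO groups did not overlap, while in het cells 1 stimulated library, at 28.2 CPM, lay below 2 of the 4 controls.

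In the 16 libraries the log2 fold change of Ptpn2 was 0.57 ± 0.13 (SE) in KO cells (edgeR's quasi-likelihood test, Benjamini-Hochberg adjusted p = 0.0157) and 0.60 ± 0.13 in het cells (adjusted p = 0.0102). It was the only called member of 30 tested in each genotype, where 5.76% of all 14630 genes tested were called in KO cells (4.81% higher, 0.95% lower) and 7.15% in het cells (5.67% higher, 1.48% lower). The median log2 fold change over the 30 members was 0.040 in KO and -0.040 in het cells, beside -0.0059 in KO and -0.026 in het cells over all genes. In the 20 libraries Ptpn2 was at 0.44 ± 0.16 in KO (adjusted p = 0.395) and 0.47 ± 0.16 in het cells (adjusted p = 0.183), and 0% of 14568 genes were called in either. At an unadjusted p under 0.05 stood 3 of 29 members in KO (8.97% of all genes) and 5 of 29 in het (13.6% of all genes). DESeq2 called 0 members in both genotypes, where it called 0.789% of all genes in KO and 3.32% in het cells.

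The call of Ptpn2 in KO cells was lost without KO control replicate 2 (adjusted p = 0.0630), without KO LPS+IFNγ replicate 2 (0.0525), without KO LPS+IFNγ replicate 5 (0.0556) or without animals 5 and 7 (0.118), at log2 fold changes of 0.53 to 0.55. In het cells it was lost without animals 1 and 9 (0.39 ± 0.10, adjusted p = 0.0524) and when het libraries were fitted alone (0.60 ± 0.17, adjusted p = 0.140). Without animals 2, 6 and 10, whose epithelial markers were near 0, the change was 0.57 ± 0.24 in KO and 0.66 ± 0.19 in het cells and no member was called (adjusted p = 0.675 and 0.144), as 1.05% and 2.79% of all genes were. Without animals 1 and 9, 5 of 29 members were called in KO cells (Ptpn13, Ptpn2, Ptpre, Ptprn and Ptprr), where 13.2% of all genes were, and 0 in het cells, where 4.2% were. Both are het animals, so no KO library was left out. In KO cells Ptpn13 went from 0.71 ± 0.21 to 0.71 ± 0.19 and Ptprn from 0.96 ± 0.43 to 0.96 ± 0.27.

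Ptpn1, the closest relative of Ptpn2, did not pass the test, at -0.025 ± 0.078 in KO and -0.072 ± 0.078 in het cells (adjusted p = 0.933 and 0.665). A difference between genotypes in the response of Ptpn2 was not called, with an interaction of -0.030 ± 0.19 on the log2 scale (adjusted p = 1.00, 16 libraries).

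**Figure D2:**
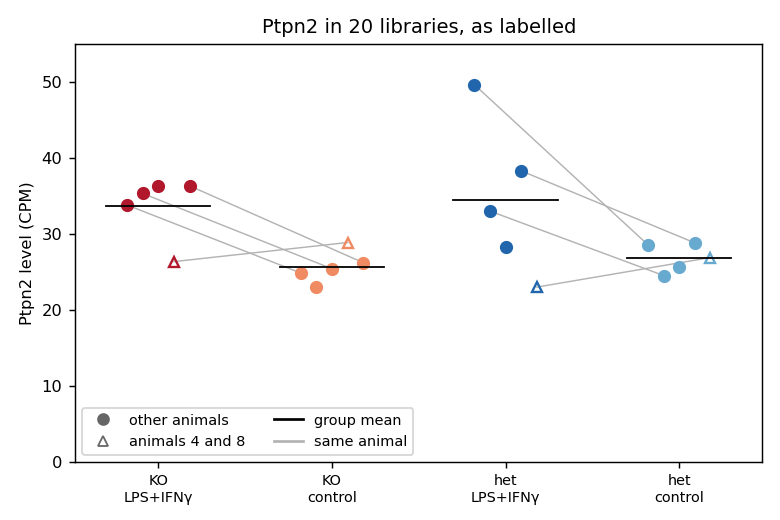
Ptpn2 in CPM in the 20 libraries as labelled, in 4 groups of 5; black lines are group means, grey lines join libraries of 1 animal, and open triangles are animals 4 and 8. The 8 other stimulated libraries run from 28.2 to 49.7 CPM and the 8 other controls from 23.0 to 28.8 CPM, while both triangle pairs slope the other way.

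The other leading members did not pass the test in the 16 libraries. Ptpn11 was at a log2 fold change of -0.010 ± 0.15 in KO and 0.10 ± 0.15 in het cells, and Ptpn14 at 0.045 ± 0.26 in KO and 0.12 ± 0.26 in het cells. Ptpn23 was at 0.052 ± 0.13 in KO and 0.29 ± 0.13 in het cells, and Ptpn12 at 0.091 ± 0.12 in KO (adjusted p = 0.819) and 0.43 ± 0.12 in het cells (adjusted p = 0.0501). The het value of Ptpn12 passed under DESeq2 (adjusted p = 0.0165), with the filter of at least 1 CPM (0.0452), without KO control replicate 5 (0.0413) and without het LPS+IFNγ replicate 4 (0.0281). Across all 30 members tested in 16 libraries, log2 fold changes ran from -0.78 to 2.52 in KO and from -1.19 to 2.16 in het cells, with Ptprb lowest and Ptprr highest in KO cells and Ptprt lowest and Ptpn22 highest in het cells. Ptprr, a MAP kinase phosphatase, was at 0 to 1.89 CPM.

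**Figure D3:**
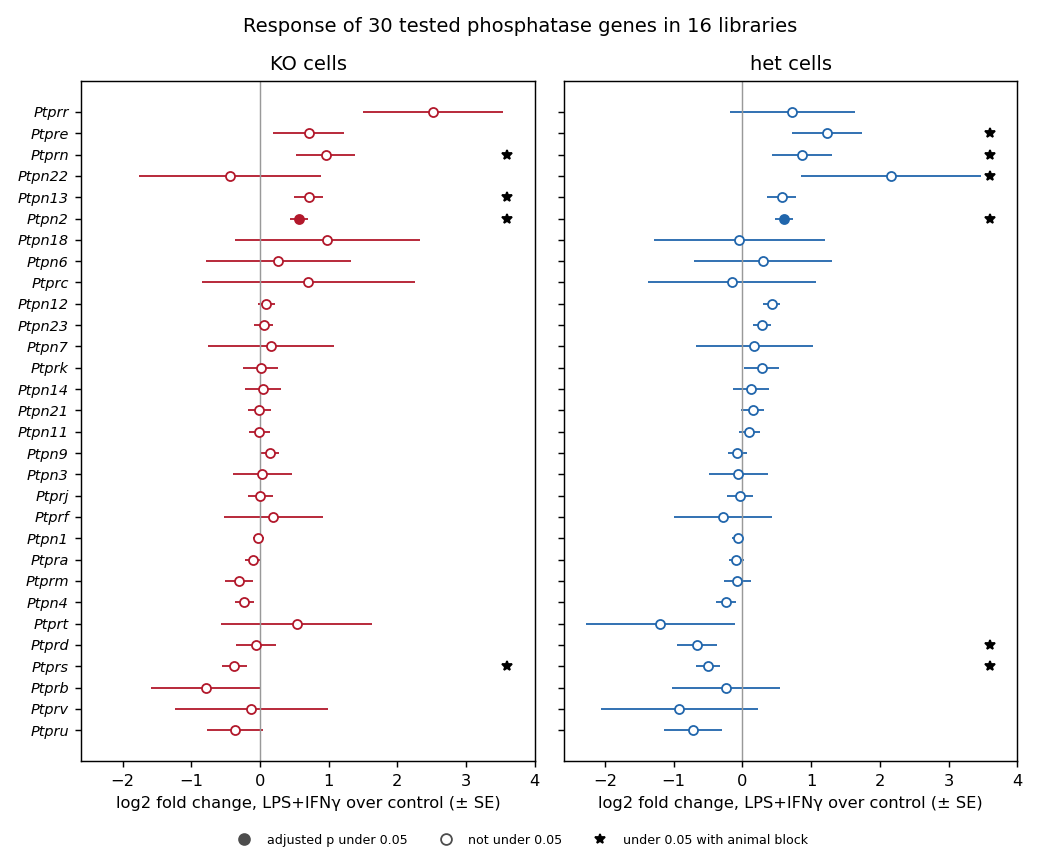
Log2 fold change (LPS+IFNγ over control, ± SE) of the 30 phosphatase genes tested in 16 libraries, KO cells on the left and het cells on the right; filled points passed an adjusted p of 0.05 and stars mark genes that passed with the animal as a block. Ptpn2 is the filled point on each side, at 0.57 and 0.60.

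Comparing the libraries of 1 animal with each other removed the differences between animals and brought further members past the threshold. In this fit, with the animal as a replicate block and animals 4, 8, 5 and 7 left out, 12 libraries of 6 animals remained (3 per genotype). Fitted without the block, the same 12 libraries gave 0 called members in KO cells, where 3.13% of all genes were called, and 1 in het cells, where 4.09% were. The blocked fit called 4 of 30 members in KO cells (Ptpn13, Ptprn and Ptpn2 higher, Ptprs lower), where it called 11.3% of all genes (6.84% higher, 4.47% lower), and 6 of 30 in het cells (Ptprn, Ptpn2, Ptpre and Ptpn22 higher, Ptprs and Ptprd lower), where it called 16.2% (9.26% higher, 6.9% lower). With animals 4 and 8 kept it called 0 members and 0% of all genes in both genotypes. Ptprs, Ptpre, Ptpn22 and Ptprd are named here after their values were seen.

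Ptpn2 rose in KO cells by 0.53 ± 0.13 (adjusted p = 0.0401) and in het cells by 0.68 ± 0.13 (adjusted p = 0.0146) in the blocked fit, and its CPM was higher in the stimulated library of 6 of 6 animals, 1.33 to 1.74 times.

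Ptprn, the granule protein gene, rose in both genotypes. It was at 142, 289, 192, 96.8 and 213 CPM in KO LPS+IFNγ libraries, against 74.7, 109, 165, 124 and 98.3 CPM in KO controls. It was at 247, 227, 158, 66.1 and 90.5 CPM in het LPS+IFNγ libraries, against 99.0, 135, 135, 46.9 and 134 CPM in het controls. The groups overlapped in both genotypes, and yet within the 6 animals the stimulated library was higher in 6 of 6, 1.41 to 2.49 times. The blocked change was 1.02 ± 0.18 in KO (adjusted p = 0.0119) and 0.99 ± 0.18 in het cells (adjusted p = 0.0129), against 0.96 ± 0.43 and 0.87 ± 0.43 without the block (adjusted p = 0.285 and 0.275).

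Ptpn13 was at 918, 972, 704, 479 and 1295 CPM in KO LPS+IFNγ libraries, against 570, 564, 552, 602 and 812 CPM in KO controls. It was at 784, 961, 862, 641 and 598 CPM in het LPS+IFNγ libraries, against 783, 567, 459.7, 610 and 604 CPM in het controls. In KO cells the lowest stimulated value came from the library so labelled of animal 8, while 3 of the other 4 exceeded all 5 controls, and the fourth, at 704 CPM, lay below the control of animal 10. The blocked change was 0.80 ± 0.13 in KO (adjusted p = 0.00969) and 0.41 ± 0.13 in het cells (adjusted p = 0.0801), against 0.71 ± 0.21 and 0.57 ± 0.21 without the block (adjusted p = 0.0684 and 0.133). Within animals, stimulated Ptpn13 was at 1.61, 1.76 and 1.60 times the control in KO animals 3, 6 and 10. In het cells it was at 1.69 times in animal 2 and at 1.00 and 1.05 times in animals 1 and 9. The difference between genotypes was not tested in the blocked fit. In the unblocked fit it was not called, at an interaction of 0.14 ± 0.30 (adjusted p = 1.00).

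Of the LAR-type adhesion receptors, Ptprs was called lower in both genotypes. Ptprd was called lower in het cells, with a similar estimate in KO cells that did not pass the threshold. Ptprs, which binds proteoglycans of the matrix, was at 187, 245, 274, 269 and 244 CPM in KO LPS+IFNγ libraries, against 280, 273, 341, 224 and 399 CPM in KO controls. It was at 151, 237, 208, 176 and 335 CPM in het LPS+IFNγ libraries, against 244, 299.8, 349, 303 and 279 CPM in het controls. It was lower in the stimulated library of 6 of 6 animals, at 0.581 to 0.791 of the control. Both libraries of animals 4 and 8 labelled stimulated were higher than their controls. Ptpn1, Ptpn4 and Ptpra, called in neither genotype, were also lower in 6 of 6, so this count alone does not set called members apart. These ratios are of CPM without TMM scaling. The TMM factor was lower in the stimulated library of each of these animals, which lowers the ratios. The blocked fit includes that scaling. The blocked change of Ptprs was -0.52 ± 0.093 in KO (adjusted p = 0.0126) and -0.47 ± 0.093 in het cells (adjusted p = 0.0169), and without the block -0.38 ± 0.18 and -0.50 ± 0.18 (adjusted p = 0.320 and 0.120). Ptprd was also lower in 6 of 6 animals, at 0.550 to 0.853 of the control. Its blocked change was -0.49 ± 0.13 in KO (adjusted p = 0.0511) and -0.51 ± 0.13 in het cells (adjusted p = 0.0353), against -0.064 ± 0.29 and -0.66 ± 0.29 without the block (adjusted p = 0.958 and 0.220). The remaining LAR-type gene, Ptprf, was higher in 4 of 6 animals and was not called.

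Ptpre, a receptor-type enzyme that acts on Src-family kinases, was higher in 6 of 6 animals, 1.21 to 2.84 times. Its blocked change was 0.70 ± 0.24 in KO (adjusted p = 0.111) and 1.12 ± 0.22 in het cells (adjusted p = 0.0176), against 0.71 ± 0.51 and 1.23 ± 0.51 without the block (adjusted p = 0.585 and 0.183). With 1 library left out, the unblocked het value ran from 0.60 to 1.52. Ptpre was at 13.9 to 39.4 CPM in animals 1 and 9, which are 2 of the 3 het animals in the blocked fit and had the highest leukocyte markers, and the part of those cells in its change was not tested. Ptpn22, which restrains antigen receptor signalling in lymphocytes, was at 78.4, 0.625, 1.41, 15.5 and 1.12 CPM in het LPS+IFNγ libraries, against 16.7, 0.248, 0.677, 6.86 and 1.20 CPM in het controls. Its 4 highest values all came from animals 1 and 9, whose leukocyte markers were highest. Of these 4 libraries, the one at 78.4 CPM, also highest in Ptpre, had the lowest leukocyte sum (124 CPM). The one at 6.86 CPM had the highest (412 CPM). Single markers did not all follow the sum. Cd68 was higher in the first of these libraries (40.3 against 22.6 CPM), while Lyz2 (241 CPM) and most others were higher in the second. The sum alone therefore does not rank these libraries by their leukocytes. The part of leukocytes in the blocked change of Ptpn22 in het cells (1.86 ± 0.43, adjusted p = 0.0285) was not tested. In KO cells Ptpn22 was at 0.817 to 3.35 CPM in LPS+IFNγ libraries and 0.977 to 5.74 CPM in controls, with a blocked change of -0.38 ± 0.45 (adjusted p = 0.655).

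**Figure D4:**
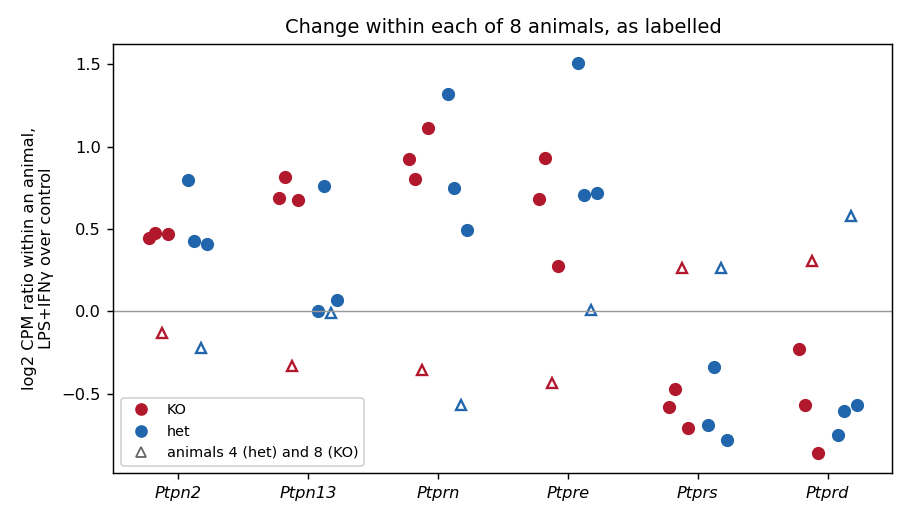
Log2 ratio of CPM (LPS+IFNγ over control) within each of the 8 animals with both libraries in 1 genotype, for 6 phosphatase genes; KO left and het right within a gene, open triangles for animals 4 and 8. In the 6 other animals Ptpn2, Ptprn and Ptpre are above 0 and Ptprs and Ptprd below 0, while Ptpn13 is near 0 in 2 het animals.

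The second comparison asked whether the cells change other tyrosine phosphatases when Ptprz1 is targeted. No phosphatase gene differed between KO and het cells past the threshold in either state, and edgeR called no gene of the whole table. Of 29 members tested in 20 libraries edgeR called 0 in LPS+IFNγ cells and 0 in controls, as it called 0% of 14568 genes in each. At an unadjusted p under 0.05 stood 2 of 29 members in LPS+IFNγ cells (Ptpn22 and Ptpre, both lower in KO; 2.51% of all genes) and 1 of 29 in controls (Ptpn21, higher in KO; 3.43% of all genes). DESeq2 called 0 members in both states, and 0% of all genes in LPS+IFNγ cells and 0.0137% in controls. The interaction of genotype and stimulus was not tested with the animal block. Without it, edgeR called 0 members and 0% of genes, with 0 members at an unadjusted p under 0.05. In the 16 libraries the same counts were 0 members and 0% of 14630 genes in all 3 comparisons. At an unadjusted p under 0.05 stood 6 of 30 members in LPS+IFNγ cells (5.38% of all genes). Ptpre, Ptpn22, Ptprc, Ptpn6 and Ptprb were lower in KO, and Ptpru, at 0.198 to 1.71 CPM, was higher (0.97 ± 0.42). In controls 3 of 30 did (Ptprc, Ptprf and Ptpn6, all lower in KO, beside 5.29% of all genes). With animals 1 and 9 also left out, 0 of 29 did in LPS+IFNγ cells (2.26% of all genes) and 1 of 29 in controls (1.73%).

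For the well-expressed members the data set limits on a difference. Approximate 95% intervals (normal quantile times SE, 20 libraries) of the log2 fold change KO over het in controls were -0.095 to 0.16 for Ptpn1, -0.042 to 0.43 for Ptpn11, -0.31 to 0.31 for Ptpn2, -0.18 to 0.25 for Ptpn23 and -0.080 to 0.42 for Ptpn12. They were wider for genes that vary between animals, at -0.34 to 0.54 for Ptpn13, -0.20 to 0.76 for Ptpn14 and -0.67 to 0.88 for Ptprn. In LPS+IFNγ cells the interval was -0.036 to 0.22 for Ptpn1, -0.34 to 0.28 for Ptpn2, -0.25 to 0.62 for Ptpn13 and -0.55 to 1.00 for Ptprn.

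Several members with low KO to het estimates stood high in het animals 1 and 9 alone, and they are named after their values were seen. Ptprf, the LAR adhesion receptor, was at 77.7, 37.8, 44.4, 95.9 and 43.2 CPM in KO LPS+IFNγ libraries and 215, 33.0, 45.6, 213 and 46.2 CPM in het ones. In controls it was at 73.7, 39.2, 32.2, 98.6 and 41.1 CPM in KO and 314, 29.9, 38.5, 308 and 51.4 CPM in het libraries. The 4 libraries of animals 1 and 9 lay at 213 to 314 CPM and the other 16 at 29.9 to 98.6 CPM. Ptpn6 ran from 10.8 to 16.2 CPM in animals 1 and 9 and from 0.172 to 3.02 CPM in the others. The same split held for Ptpn3 (40.0 to 54.8 against 13.2 to 24.1 CPM) and Ptpre (13.9 to 39.4 against 3.72 to 9.50 CPM). Ptpn22 (6.86 to 78.4 against 0.248 to 5.74 CPM) and Ptprc (0.629 to 8.98 against 0 to 0.519 CPM) were also highest in these animals. Their sets nearly met, and for Ptprc the nearest values rest on 11 and 8 counts.

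Summed over 13 genes, tubular markers were also highest in animals 1 and 9, at 1566 to 2488 CPM against 452 to 1466 CPM in the other 16 libraries. Cdh16 reached 889 CPM in those animals and at most 293 CPM elsewhere, while Epcam, Cdh1, Krt8, Krt18, Pax8 and Pax2 peaked in other libraries. Leukocyte and fibroblast sums are given above. The part of these cell types in the phosphatase levels was not tested. The log2 fold change KO over het of Ptprf was -0.88 ± 0.67 in LPS+IFNγ cells and -1.26 ± 0.67 in controls with all 20 libraries, and 0.51 ± 0.39 and 0.54 ± 0.39 without animals 1 and 9. That of Ptpn6 was -1.91 ± 0.96 and -1.73 ± 0.95, and without those animals 0.85 ± 0.73 and 0.014 ± 0.70. That of Ptpn22 was -3.54 ± 1.25 and -0.84 ± 1.15, and without them 0.68 ± 0.64 and 1.91 ± 0.68. No member was called without animals 1 and 9 (0 of 29 in each state, and 0% of 14707 genes). Without the 4 libraries of animals 5 and 7, whose genotype is in doubt, edgeR likewise called 0 of 30 members and 0% of genes in each state.

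**Figure D5:**
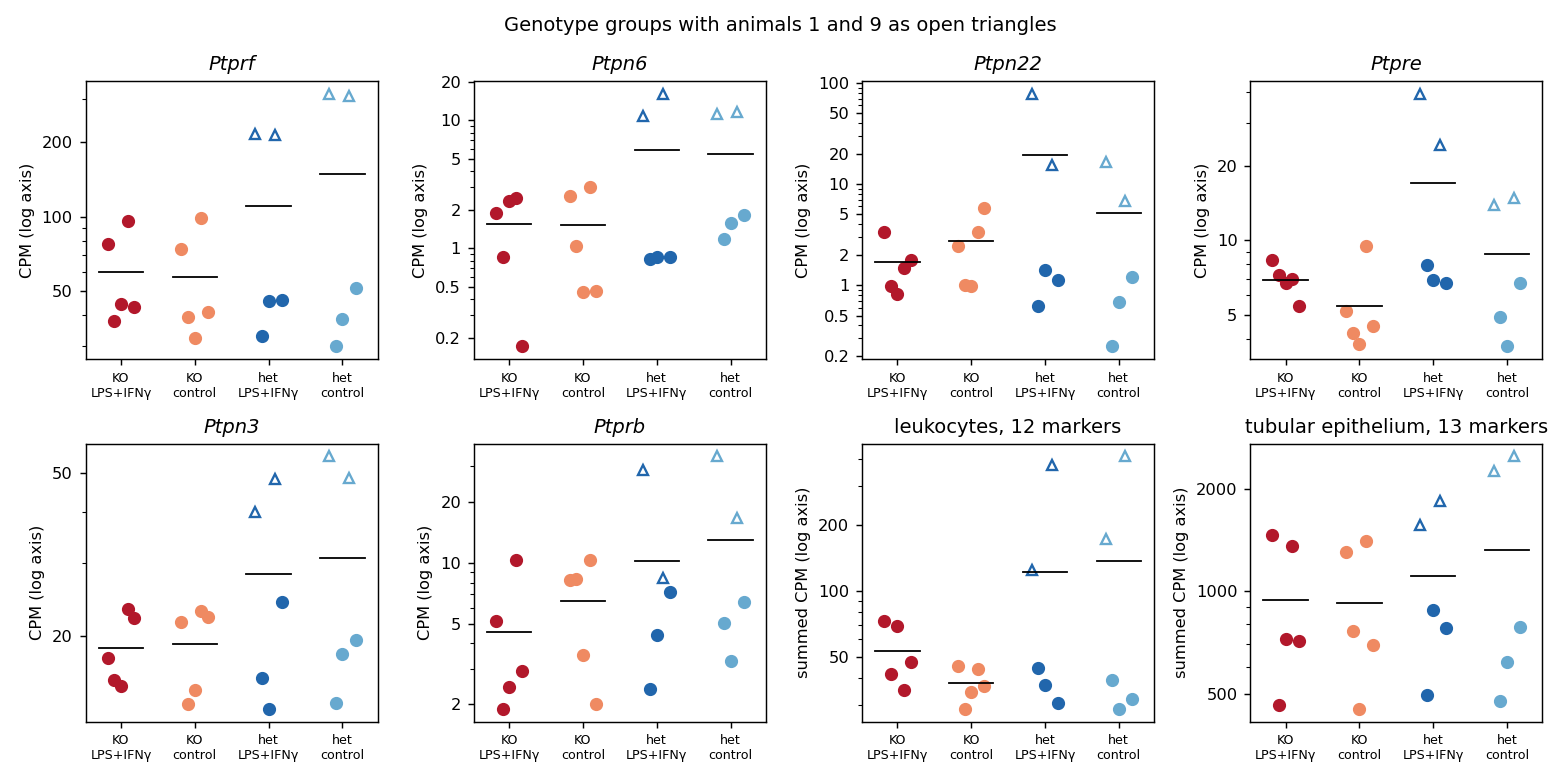
CPM (log axes) of 6 phosphatase genes and summed CPM of leukocyte and tubular markers by group, 1 point per library with group means as lines; open triangles are het animals 1 and 9. The triangles lie above all 10 KO points for Ptprf, Ptpn6, Ptpn22, Ptpre and Ptpn3, while the other het points lie near the KO points.

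Phosphatases outside the classical family were followed as a list of 36 genes (dual-specificity, Cdc25, Ptp4a and related enzymes), of which 35 were tested. In the 16 libraries 2 were higher after LPS+IFNγ in KO cells and 4 in het cells, beside 4.81% of all genes in KO and 5.67% in het cells, and 0 were lower in either. Dusp28 was at 16.8 ± 2.84 CPM in KO LPS+IFNγ cells and 7.16 ± 0.416 CPM in KO controls (SD, n = 4 each; log2 fold change 1.29 ± 0.17, adjusted p = 0.000191). In het cells it was at 12.8 ± 2.72 and 5.40 ± 0.628 CPM (1.37 ± 0.17, adjusted p = 0.000108). Ptp4a2, a membrane-bound phosphatase of the PRL group, rose by 0.39 ± 0.091 in KO (adjusted p = 0.0175) and 0.34 ± 0.091 in het cells (adjusted p = 0.0326). Dusp10, which acts on the stress kinases JNK and p38, rose by 0.87 ± 0.20 (adjusted p = 0.0168) and Dusp22 by 0.86 ± 0.20 (adjusted p = 0.0139) in het cells. None of the 35 was called in KO against het cells or in the interaction, or in any comparison of the 20 libraries.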

How the data were processed

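RNA of 20 libraries was analysed from 1 table of estimated counts, deposited as whole numbers with a column per library, and 0 per-sample columns went unused. Salmon 1.10.2, FastQC 0.11.9, DESeq2 1.45.3, R 4.4.1 and build GRCm39 are named, without their roles, per the submitters' processing notes, and the labels describe a directional library kit. How transcripts were summed and which strand setting was used are not in those notes, so a gene and an antisense partner may share reads. Rounding before the tests changed no value. Symbols and exon lengths came from GENCODE M21 (GRCm38) and were found for 51425 IDs (92.0%), and promoters came from RefSeq (GRCm38.p6).

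CPM is the count per 1000000 counts of the library, without TMM scaling. Tests used edgeR 4.0.16 in R 4.3.3 (TMM, filterByExpr, robust quasi-likelihood F test, 4 group means), Benjamini-Hochberg adjusted over all genes, at a threshold of 0.05. Motifs were matched by letters on both strands, and those for NF-κB and the response element were redefined after a first, different search had been seen. No promoter window of Ptpn2 or Ptpn12 was searched, so the search says nothing on their motifs. Another motif that was searched is not reported here. The filter left 29 members in 20 libraries and 30 in 16, where Ptprc was added. Each SE was obtained as the size of the log2 fold change over the root of its F statistic. The genes named are Ptprz1, all called members, the 6 highest per kb and, from the second list, up to 6 called genes. Alternatives were DESeq2 1.42.0, limma-voom (limma 3.58.1), other scalings and filters, 2-group fits, an animal block and libraries left out. Leaving out animals 1 and 9, or 2, 6 and 10, was chosen after seeing the data. The fits were tested on simulated data. The members, the lists and the exclusion of animals 4 and 8 were chosen with earlier results of these data known.

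The block rests on the animal named in the labels. For the 8 animals with both libraries in 1 genotype, the correlation of their deviations from the group means was -0.331 to 0.644, above 0.1 in 6 animals, and at least 0.421 in the 6 without animals 4 and 8. The labels do not say whether libraries of 1 animal were separate cultures, so the spread behind each p-value is that between these libraries and may be technical, and limits from counts cover counting error only.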

Additional observations from a re-analysis of the deposited data

Results flagged for a closer look

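For 15 members other than Ptprz1, the values of the 5 libraries in each group were checked for 1 library far from the other 4 (Dixon's test, 95% critical value 0.71). In independent groups chosen beforehand, chance alone picks out about 1 in 20. Here several members were named after their values were seen, and groups share animals. That rate is therefore no yardstick for the 7 of 60 groups picked out. In 4 of them the library belonged to animal 4 or 8, whose stimulus genes went against the label. These were Ptpn2 in the library labelled KO LPS+IFNγ replicate 4 at 26.3 CPM, below 33.8 to 36.3 CPM in the other 4, Ptpre in the library labelled KO control replicate 4 at 9.50 CPM, above 3.79 to 5.20 CPM, Ptprd in the library labelled het LPS+IFNγ replicate 5 at 58.1 CPM, above 19.2 to 26.8 CPM, and Ptpn12 in the library labelled het control replicate 5 at 87.8 CPM, above 72.8 to 76.4 CPM. In het LPS+IFNγ replicate 1, of animal 1, Ptpn22 stood at 78.4 CPM and Ptprb at 28.8 CPM, above all 4 other libraries of that group. In KO control replicate 5, of animal 10, Ptpn13 stood at 812 CPM, above 552 to 602 CPM.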

How the results depend on the processing

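Of 1322 recomputed values, 1251 kept their direction and side of the threshold. Counts of members called after LPS+IFNγ depended on the libraries and on the fit. With all 20 libraries they were 0, against 1 in KO and 1 in het cells without animals 4 and 8, and leaving out 1 library gave 0 to 1 in het cells (1 without the library labelled het LPS+IFNγ replicate 5). In the 16 libraries the count in KO cells (1) became 2 under DESeq2 (9.03% of all genes called), 4 with the animal as replicate block (11.3%), 2 when KO libraries were fitted alone (11%), 5 without animals 1 and 9 (13.2%), 0 without animals 2, 6 and 10 (1.05%), 0 without animals 5 and 7 (3.13%), beside 5.76% with 1 member called, and 0 to 2 with 1 library left out. In het cells (1) it became 2 with the CPM filter (7.95% of all genes), 2 under DESeq2 (11.4%), 6 with the replicate block (16.2%), 0 when het libraries were fitted alone (3.16%), 0 without animals 1 and 9 (4.2%), 0 without animals 2, 6 and 10 (2.79%), beside 7.15% with 1 member called, and 1 to 2 with 1 library left out. The block changed no count in the 20 libraries. Fits without animals leave fewer libraries, and the cause was not tested.

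Without animals 1 and 9 the log2 fold change KO over het in 20 libraries reversed in LPS+IFNγ cells for Ptprf (0.51), Ptpn6 (0.85), Ptpn22 (0.68) and Ptpn3 (0.083), and in controls for Ptprf (0.54), Ptpn6 (0.014), Ptpn22 (1.91), Ptpre (0.11), Ptpn3 (0.17) and Ptprb (0.43). Ptpn22 also moved to 0.000825 under limma-voom in controls and ran from -1.27 to 0.35 there with 1 library left out, and its response in het cells ran from -0.061 to 3.29. The KO minus het difference of Ptprz1 in controls was -0.0908 CPM without animals 4 and 8, -0.0697 to 0.0423 CPM with 1 library left out, and -0.0898 to 0.0242 CPM in LPS+IFNγ cells. Ptprz1 rests on 31 counts, so depth limits any statement on it.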
